A study of Mus musculus with 40 samples.

Results

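The interferon-stimulated genes (ISGs) are genes whose transcription rises when a cell receives interferon. A list of 38 of them was followed over 40 QuantSeq libraries of cultured mouse melanoma cells. The members were taken by gene symbol from the 51789 Ensembl genes of the count table, and each of the 38 had at least 1 count in some library. The 40 libraries form 20 groups of 2. B16-F10 cells were Ctrl or Bmal1 KO, each a single clone received from another laboratory. YUMM2.1 cells (Braf V600E, Cdkn2a+/-, with a stabilized beta-catenin allele) and YUMM1.7 cells (Braf V600E, Cdkn2a-/-) were not edited at Bmal1 and carried a lentiviral empty vector (EV), wild-type Bmal1 (WT-Bmal1) or dHLH-Bmal1, a form that lacks the basic helix-loop-helix domain with which Bmal1 binds DNA. The aC3 cells were 1 Bmal1-null clone made from YUMM2.1 by CRISPR editing, and they received the same 3 vectors. The study's methods describe adding the vectors to YUMM2.1 and aC3 cells that held a Bmal1 promoter reporter. In the last 9 groups, YUMM2.1 cells of each vector also carried a control hairpin (shNC) or a hairpin against Myh9, shMyh9#2 or shMyh9#4, under puromycin selection. Cells grew in standard culture, and the labels name no interferon treatment, so the levels below are basal levels of tumour cells.

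Type I interferons bind a receptor of Ifnar1 and Ifnar2 and, through the kinases Jak1 and Tyk2, activate Stat2. It joins Irf9 in a complex that binds the interferon-stimulated response element (ISRE) before many ISGs. Interferon gamma uses Ifngr1 and Ifngr2 and acts at gamma-activated sites (GAS) and through Irf1. The products restrict viruses, sense foreign nucleic acids, attach the ubiquitin-like protein Isg15 to other proteins or, as guanylate-binding proteins and immunity-related GTPases, attack the vacuoles of intracellular pathogens. Many tumour cells keep a part of this programme on without added interferon.

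QuantSeq reads the 3′ end of a transcript. A long transcript therefore gives no more reads than a short one, and levels can be set side by side between genes. Levels are CPM, counts scaled to library size by edgeR's TMM factors over all 40 libraries, and each value is that of 1 library. Library totals ran from 3643332 to 22970049 counts. Changes are log2 fold changes with their standard error (SE) from edgeR's quasi-likelihood fit of the experiment. A gene was called when its Benjamini-Hochberg adjusted p over all genes tested was under 0.05. Since a group has 2 libraries, a two-sided exact permutation test cannot go below 0.333, so none was run. The study calls its RNA-seq duplicates of B16-F10, YUMM2.1, YUMM1.7 and the hairpin cells biological replicates. What was done separately for each is not given in the sources used here, so the spread between the 2 libraries of a group may in part be technical.

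Bmal1 is listed under Arntl. In B16-F10, Arntl stood at 15.3 and 10.7 CPM with Ctrl and at 13.4 and 11.4 CPM where the label is Bmal1 KO. In aC3 it was 32.8 and 30.3 CPM with EV. It was 18.2 and 17.4 CPM with the wild-type and 44.96 and 31.4 CPM with the dHLH form. Where the edited bases lie is not given for the counted 3′ end, so these values check neither label. Myh9 was 665 to 996 CPM in the 6 shNC libraries, 231 to 292 in the 6 with shMyh9#2 and 473 to 681 in the 6 with shMyh9#4. The summed level of 9 leukocyte markers was 0.951 to 7.03 CPM over the 40 libraries, with 17 counts of Ptprc and 0 of Cd3e in all of them together. The pigment cell markers Dct, Tyrp1, Pmel and Mlana were high in B16-F10 and at or near 0 in all YUMM and aC3 libraries. The YUMM2.1 and aC3 libraries rest mainly on Sox10 for that label, and the YUMM1.7 libraries, with the 7 pigment cell markers summing to 10.7 to 14.8 CPM, have little beyond Mitf (10.4 to 13.1 CPM). Sox10 was 429 to 539 CPM in YUMM2.1 with EV or WT-Bmal1, 66.00 and 72.1 with dHLH-Bmal1 and 0.0904 to 1.51 in YUMM1.7. The libraries labelled Bmal1 KO stood furthest apart from each other, with a chi-square of 96.5 per degree of freedom over genes, against 2.68 to 22.2 in the other 19 groups. In a table of normalized counts from the study, the libraries deposited as YUMM2.1 EV 2 and YUMM2.1 WT-Bmal1 1 appear under each other's label. The deposited labels are used here, and counts of members in the comparisons with these libraries are also given with the 2 labels exchanged.

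Promoter letters were read for the same members. The members were listed as interferon-stimulated, and interferon acts at the ISRE and GAS. An excess of these letters is therefore bound up with the choice and is no independent result. RefSeq windows of the 250 bases before the transcription start (build GRCm38.p6) exist for 30 of the 38 members, in 35 windows. The ISRE core, searched as GAAANNGAAA on both strands, occurred in 12 of these 35 windows (34.3%) and in 2.98% of all 32851 windows. The GAS letters TTCNNNGAA, which may overlap an ISRE core, occurred in 22.9% of member windows and in 7.02% of all windows. The E-box CACGTG, which Bmal1 binds together with Clock, occurred before 1 member, Trim25, or 2.86% of member windows against 6.02% of all. A match is a description of letters and not a site in use. The 12 members with an ISRE core were Stat2, Isg15, Ifit1, Ifit3, Oas1a, Rsad2, Bst2, Gbp2, Gbp3, Gbp7, Igtp and Irgm1. No window was given for Mx1, Dhx58, Zbp1, Parp14, Parp9, Rtp4, Ifi27 and Usp18. The stretches printed were picked among members with a motif, so they do not stand for the called members as a set. Ifitm3, the member called most often within experiments, and Xaf1 hold no ISRE core in their windows. Isg15, which is printed, was called in no comparison within an experiment. The stretches run 5′ to 3′ on the gene's strand, with the ISRE cores in capitals and, for Trim25, the E-box:
Isg15 (chr4:156200850-156200909, minus strand): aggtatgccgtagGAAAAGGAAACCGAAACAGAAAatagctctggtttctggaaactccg
Ifit1 (chr19:34640779-34640838, plus strand): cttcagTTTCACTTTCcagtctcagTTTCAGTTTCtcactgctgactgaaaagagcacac
Ifit3 (chr19:34583382-34583441, plus strand): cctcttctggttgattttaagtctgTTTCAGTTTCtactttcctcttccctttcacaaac
Bst2 (chr8:71537562-71537621, minus strand): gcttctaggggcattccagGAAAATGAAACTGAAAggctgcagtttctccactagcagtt
Rsad2 (chr12:26456538-26456597, minus strand): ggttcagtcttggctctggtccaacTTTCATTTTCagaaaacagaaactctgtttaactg
Gbp7 (chr3:142530258-142530317, plus strand): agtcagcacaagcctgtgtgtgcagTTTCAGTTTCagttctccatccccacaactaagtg
Trim25 (chr11:88999328-88999375, plus strand): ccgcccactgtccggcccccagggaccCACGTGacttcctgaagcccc
In Isg15, 3 overlapping cores lay 56 bases before the start, where Bst2 had 2 at 114 bases and Ifit1 had 2 with the nearer at 75 bases. Ifit3, Rsad2 and Gbp7 each had 1 core in the stretch, at 112, 110 and 43 bases. The Trim25 E-box ended 42 bases before the RefSeq start and 15 bases before the upstream end of the gene as annotated by Ensembl, where the printed stretch stops.

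The basal programme was uneven. Of the 38 members, 19 were at 1 CPM or more in every library, 14 had 0 counts in at least 1 library, and Usp18 and Zbp1 stayed under 1 CPM in all 40. Ifitm3, whose product blocks fusion of viruses with cell membranes, was the most abundant member by its median over groups (272 CPM). It was followed by Samhd1 (61.6 CPM), which degrades deoxynucleotides, and Ifi27 (45.7 CPM). By contrast Irf7, the factor that amplifies an interferon response, had a median of 0.18 CPM and passed 1 CPM in 5 libraries, all of them of YUMM1.7. Mx1, a dynamin-like antiviral GTPase, passed 1 CPM in 2 libraries. Summed over the 38 members, the level was 365 to 463 CPM in B16-F10, 590.1 to 849 in YUMM2.1, 609 to 818 in aC3, 760.3 to 919 in YUMM1.7 and 509 to 1126 in the hairpin libraries. Ifitm3 alone made up 8.91 to 13.7% of that sum in B16-F10 and up to 68.5% in the hairpin libraries.

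**Figure D1:**
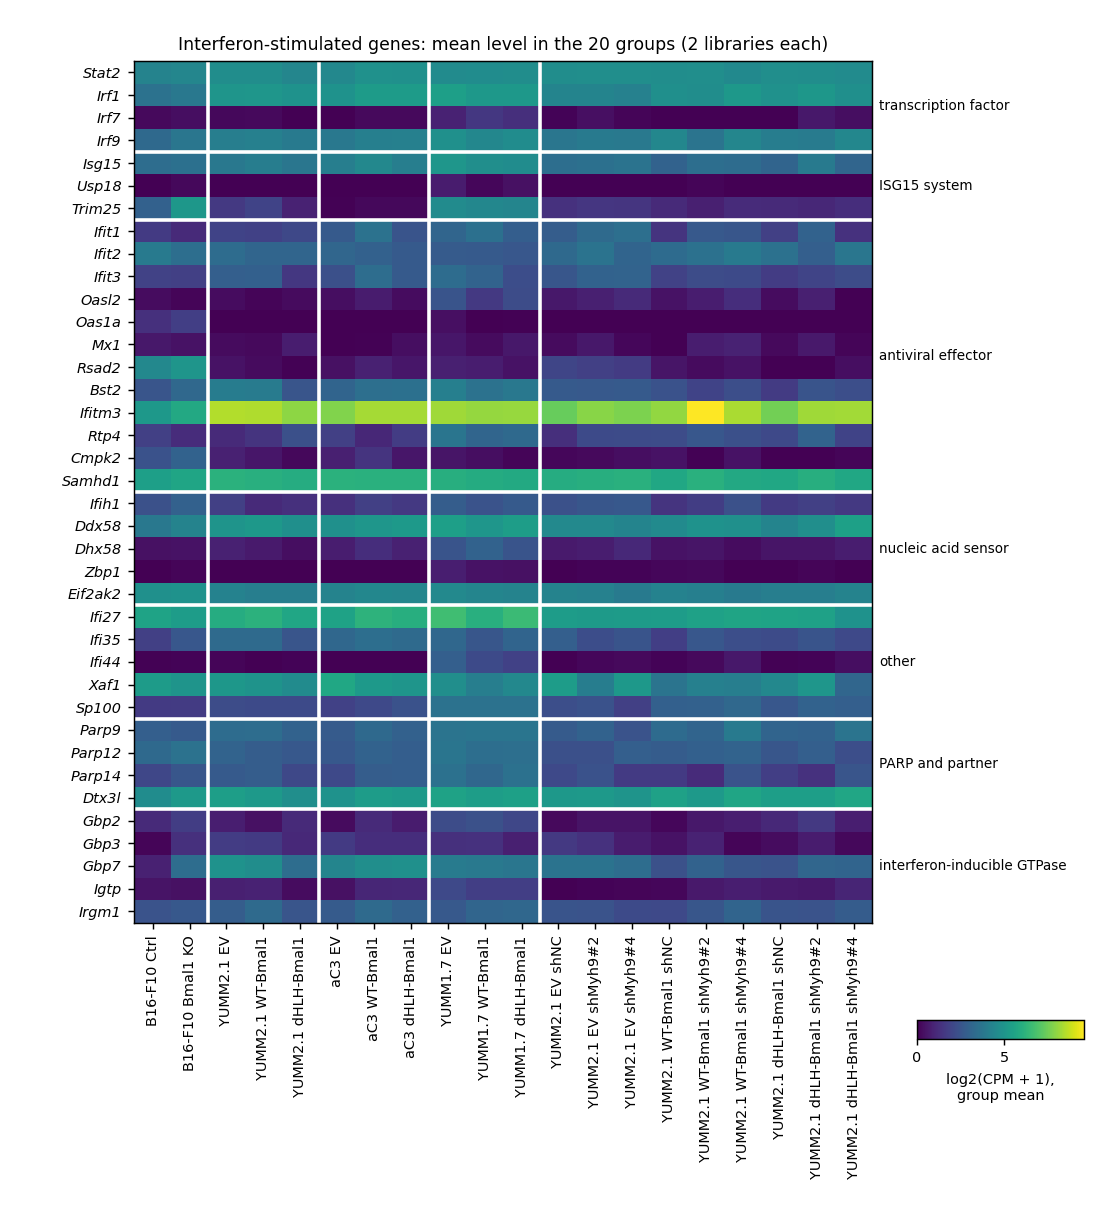
Mean level of the 38 members (rows, by role) in the 20 groups (columns, 2 libraries each) as log2(CPM + 1), with white lines between roles and between experiments. Ifitm3 is the highest member in every group but B16-F10 Ctrl, and Trim25, Rsad2, Cmpk2 and Oas1a are highest in B16-F10 Bmal1 KO.

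Among the transcription factors, Stat2 was nearly level, with group means from 18.4 CPM in B16-F10 Ctrl to 28.05 CPM in aC3 WT-Bmal1. Its neighbours in that order overlapped. Irf9 ran from 8.53 and 8.67 CPM in B16-F10 Ctrl to 30.96 and 23.8 CPM in YUMM1.7 EV, and it overlaps Rnf31 on the same strand. Irf1 was 10.7 to 15.03 CPM in B16-F10, 27.99 to 32.9 in YUMM2.1, 28.7 to 39.7 in aC3, 30.4 to 44.4 in YUMM1.7 and 16.2 to 34.5 in the hairpin libraries. For Irf1 all 4 B16-F10 libraries lay below all 18 others without a hairpin, and for Irf9 they overlapped them. Isg15, the ubiquitin-like modifier, was 8.16 to 13.1 CPM in B16-F10, 10.1 to 15.7 in YUMM2.1, 14.5 to 23.9 in aC3, 22.3 to 32.1 in YUMM1.7 and 5.73 to 14.6 in the hairpin libraries. Usp18, which removes Isg15 from proteins, reached 0.798 and 0.561 CPM in YUMM1.7 EV and was at 0 in 31 libraries. Trim25, a ligase for Isg15 and for the sensor RIG-I, was 19.4 to 24.7 CPM in YUMM1.7, 0.588 to 2.87 in YUMM2.1 and 0 to 0.291 in aC3.

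The antiviral effectors split by line. Rsad2, which encodes viperin, was 19.7 and 23.1 CPM in B16-F10 Ctrl and at most 3.47 CPM in any library outside B16-F10. Cmpk2, a nucleotide kinase gene next to Rsad2 on chromosome 12 (Rsad2 26442746 to 26456452, Cmpk2 26469204 to 26479837), was 3.79 to 8.87 CPM in B16-F10 and at most 2.08 CPM elsewhere. Oas1a, an oligoadenylate synthetase, was 1.53 to 3.17 CPM in B16-F10 and at 0 in 33 of 40 libraries. Of the 75-base windows at the end of Oas1a transcripts, 46% are shared with Oas1g, so its counts are uncertain. Ifit1, whose product binds foreign RNA caps, was 0.143 to 2.22 CPM in B16-F10, 2.13 to 3.21 in YUMM2.1, 4.46 to 12.4 in aC3, 4.62 to 12.1 in YUMM1.7 and 0.849 to 11.2 in the hairpin libraries. The related gene Ifit3 shares 9.86% of its end windows with Ifit3b. Gbp2, an interferon gamma-inducible GTPase gene, passed 1 CPM in all 6 YUMM1.7 libraries (2.47 to 4.4 CPM) and all 4 of B16-F10 (1.02 to 2.48 CPM), and was 0.198 to 1.51 CPM in YUMM2.1, 0.184 to 1.23 in aC3 and 0 to 2.27 in the hairpin libraries. Gbp7 was 0.671 to 0.969 CPM in B16-F10 Ctrl and 27.5 and 29.6 in YUMM2.1 EV.

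**Figure D2:**
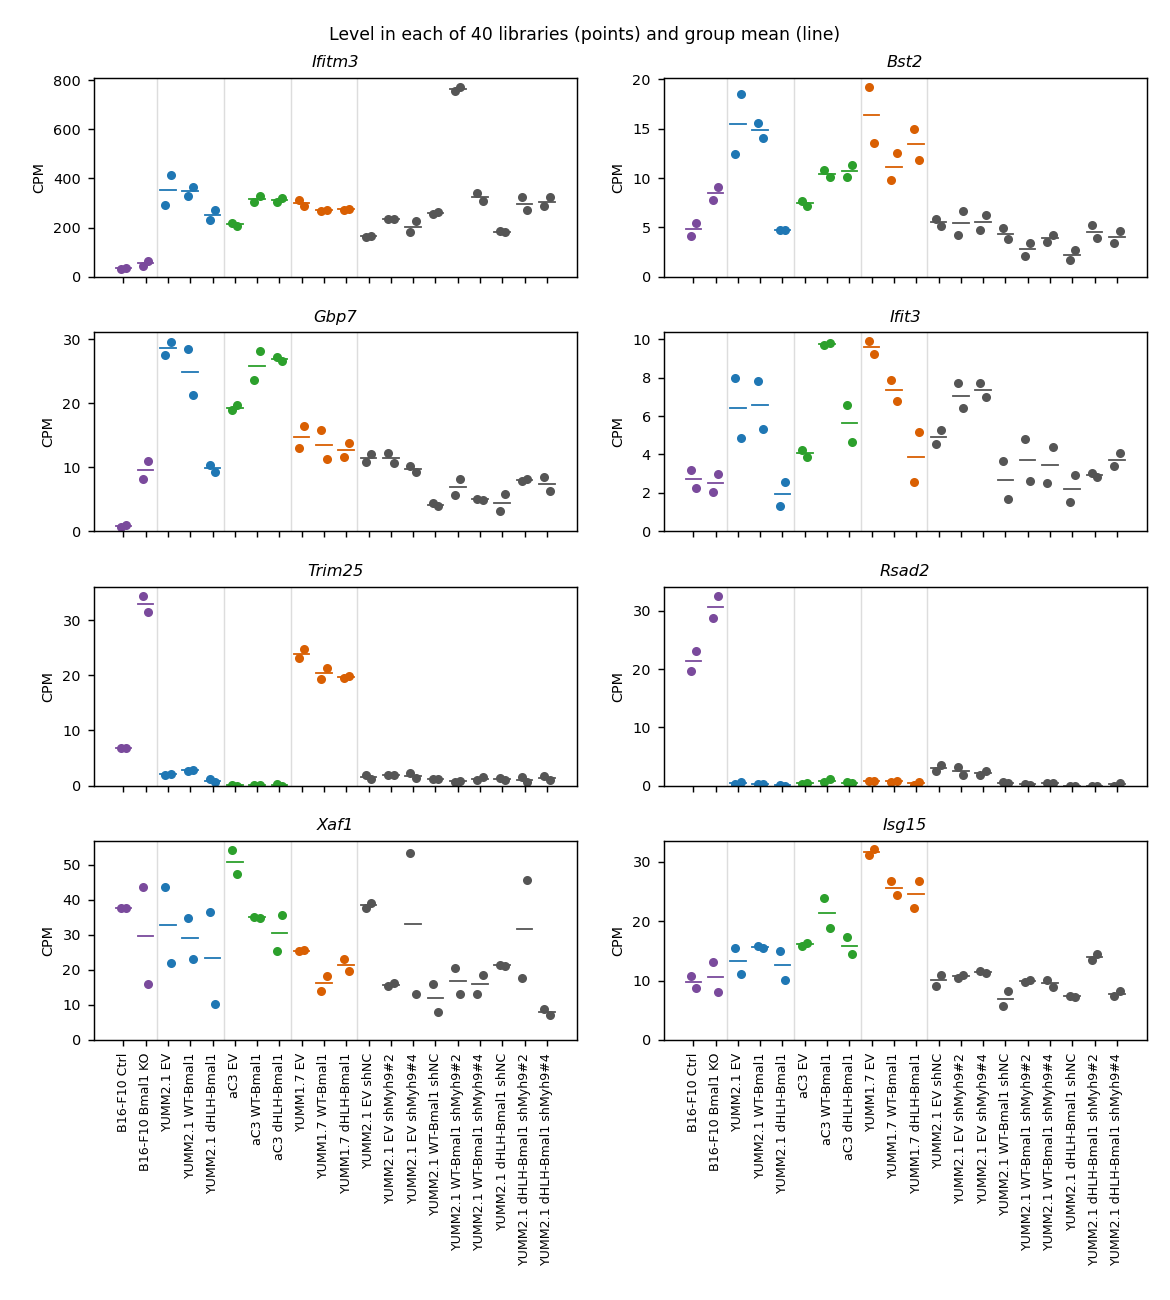
Level in CPM of 8 members in each of the 40 libraries (points) with the group mean (line), coloured by experiment. Trim25 and Gbp7 separate B16-F10 Bmal1 KO from Ctrl, Rsad2 is at most 3.47 CPM outside B16-F10, Ifitm3 peaks in YUMM2.1 WT-Bmal1 shMyh9#2 and Xaf1 differs widely between the libraries of several groups.

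These are bulk libraries, in which fewer cells with a transcript and less of it per cell cannot be told apart. The first comparison asks how the lines differ, read from EV cells and, for B16-F10, from the control clone. Whether the lines were cultured or sequenced together is not given in the sources used here. Line and batch therefore cannot be told apart, here and for B16-F10 and aC3 below. YUMM2.1 EV cells themselves had summed member levels of 760.2 and 849 CPM without a hairpin. With the control hairpin the sums were 523.5 and 518.7 CPM. YUMM1.7 EV libraries held more ISG transcript in sum, at 919 and 886 CPM, than YUMM2.1 EV libraries without a hairpin. By role, the mean sum of the antiviral effectors was 420 CPM against 459 in YUMM2.1 EV. That of the interferon-inducible GTPases was 28.7 against 38.4, and those of the other roles were higher in YUMM1.7 EV. Of 35 members tested, 17 were higher and 1 was lower, against 32.7% of all 16091 genes called in this comparison. The median log2 fold change of the 35 was 0.68, and that of all genes was -0.02. Trim25 was 23.1 and 24.7 CPM in YUMM1.7 EV and 2.00 and 2.05 in YUMM2.1 EV (log2 fold change 3.53 ± 0.29 (SE), edgeR adjusted p = 5.41e-08). Rtp4, an interferon-induced chaperone gene, was 11.5 and 12.9 against 1.08 and 1.3 CPM (log2 fold change 3.33 ± 0.37 (SE), edgeR adjusted p = 2.28e-06). Isg15 was 31.1 and 32.1 against 15.5 and 11.1 CPM (log2 fold change 1.22 ± 0.23 (SE), edgeR adjusted p = 0.000575). In all 3 the groups did not overlap, which adds no support, since they were picked among called genes and the share over all genes was not counted.

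Oasl2, an oligoadenylate synthetase-like gene, was 0.167 and 0.324 CPM in YUMM2.1 EV and 5.14 and 4.11 in YUMM1.7 EV (edgeR adjusted p = 0.000204). Ifi44 was 0 and 0.216 CPM in YUMM2.1 EV and 5.14 and 7.85 in YUMM1.7 EV (edgeR adjusted p = 0.000603). Dhx58, which encodes the sensor LGP2, Gbp2 and Igtp, an immunity-related GTPase gene that overlaps Irgm2, were higher by log2 fold changes of 2.42, 2.32 and 2.07. Oas1a was called on 0.355 and 0.28 CPM against 0 in both YUMM2.1 EV libraries, too few counts for a fold, and this call was lost under DESeq2's Wald test (adjusted p = 0.179). The other 9 members called higher, among them Irf9, Irf1 and Isg15, had log2 fold changes between 0.42 and 1.62. Gbp7 was the member that was lower, at 12.9 and 16.4 CPM against 27.5 and 29.6 (log2 fold change -0.98 ± 0.21 (SE), edgeR adjusted p = 0.00166). Leaving out 1 library ended the calls of Irf1, Ddx58, Oas1a and Parp14 whichever of the 4 it was, with adjusted p from 0.0508 to 0.18. Without YUMM1.7 EV 1 the adjusted p of Irf9 was 0.0902, and Parp12 lost its call without YUMM1.7 EV 1 or YUMM2.1 EV 2 (up to 0.239). Those of Ifih1 (up to 0.0592) and Igtp (up to 0.115) were lost without YUMM2.1 EV 2 or YUMM1.7 EV 2. With the 2 YUMM2.1 labels exchanged, 18 members were called, where 5870 of all 16091 genes were in place of 5269. Ddx58 and Parp14 were then not called (adjusted p = 0.109 and 0.118). Markers of other cell types moved with this comparison. Sox10, 1 of 7 pigment cell markers tested, was lower in YUMM1.7 EV (log2 fold change -8.56), and the 7 summed to 14.1 and 14.8 CPM against 519 and 499. Of 2 endothelial markers, Cdh5 was higher, at 7.72 and 8.04 against 0.167 and 1.73 CPM. Their part in the ISG differences was not tested.

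B16-F10 Ctrl against YUMM2.1 EV gave a mixed picture, and since Ctrl is a single clone, line and clone cannot be told apart. Of 35 members tested, 6 were higher and 15 lower in B16-F10, against 48.9% of all genes called. Rsad2 was 19.7 and 23.1 CPM in B16-F10 Ctrl and 0.25 and 0.541 in YUMM2.1 EV (log2 fold change 5.76 ± 0.44 (SE), edgeR adjusted p = 9.77e-09). Oas1a, at 0 in both YUMM2.1 EV libraries, was at least 4.75-fold higher against a floor of 3 counts per library. Trim25, Cmpk2, Rtp4 and Eif2ak2, the gene of the kinase PKR, were the others that were higher, with log2 fold changes of 1.72, 2.28, 1.09 and 0.55.

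Ifitm3 was lower in B16-F10 Ctrl, at 32.7 and 34.8 CPM against 290.4 and 414 (log2 fold change -3.40 ± 0.18 (SE), edgeR adjusted p = 7.69e-11). Gbp7 was 0.671 and 0.969 CPM against 27.5 and 29.6 (log2 fold change -5.12 ± 0.27 (SE), edgeR adjusted p = 9.46e-11), and Gbp3 was 0.192 and 0 against 2.92 and 1.51 CPM. Both guanylate-binding protein genes lie on chromosome 3. Ifi35, Bst2, Irf1, Ifit3 and Ddx58, the gene of RIG-I, were lower by log2 values of -1.88, -1.69, -1.45, -1.28 and -1.23, and the other 7 by -0.42 to -0.93. The calls of Parp14 and Rtp4 were lost whichever of the 4 libraries was left out (adjusted p up to 0.213 and 0.139). Those of Stat2 and Ifit3 were lost without B16-F10 Ctrl 2 or YUMM2.1 EV 1 (up to 0.223 and 0.123). Ifi27 lost its call without B16-F10 Ctrl 1 or YUMM2.1 EV 1 (up to 0.106). Eif2ak2 lost its call without YUMM2.1 EV 2 (0.0678), Parp9 without that library or B16-F10 Ctrl 1 (up to 0.221) and Cmpk2 without it or B16-F10 Ctrl 2 (up to 0.135). With the 2 YUMM2.1 labels exchanged, 7 members were higher and 16 lower, these 21 among them. Of all 16091 genes, 8059 were then called in place of 7868. Pigment cell markers moved with this comparison: 6 of 7 were higher in B16-F10 Ctrl, with summed levels of 24579.5 and 26032 CPM against 519 and 499. Both endothelial markers, Pecam1 and Cdh5, were lower, Cdh5 at 0, and of 2 leukocyte markers tested Lyz2 was higher and Cd68 lower. Their part in the ISG differences was not tested.

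The aC3 clone with EV differed from YUMM2.1 EV in 3 of 35 members, Bst2, Ifitm3 and Trim25, all lower, against 1.95% of all genes. Trim25 was at 0.0887 and 0 CPM, 1 and 0 counts, where YUMM2.1 EV had 2.00 and 2.05 CPM (edgeR adjusted p = 0.000332). Bst2, the gene of the virion-trapping protein tetherin, was 7.72 and 7.18 CPM against 12.4 and 18.5 (log2 fold change -1.03 ± 0.24 (SE), edgeR adjusted p = 0.0306). Ifitm3 was 220.5 and 207 CPM against 290.4 and 414 (log2 fold change -0.70 ± 0.16 (SE), edgeR adjusted p = 0.0304). The calls of Bst2 and Ifitm3 were lost without YUMM2.1 EV 2, aC3 EV 1 or aC3 EV 2 (adjusted p up to 0.32 and 0.361). With the YUMM2.1 labels exchanged, 5 members were called, these 3 among them, where 533 of all 16091 genes were called in place of 314. Since aC3 is 1 clone, this comparison cannot tell the absence of Bmal1 and other properties of the clone apart. With WT-Bmal1 returned to aC3, Trim25 stayed near 0 CPM, Bst2 was not called and Ifitm3 rose, as described below. The cause of each difference was not tested.

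The second question is what loss of Bmal1 does in B16-F10. Trim25 and Gbp7 were higher in Bmal1 KO, 2 of 32 members tested, where 0.44% of all 14556 genes were called. Trim25 rose from 6.86 and 6.73 CPM in Ctrl to 34.3 and 31.5 in Bmal1 KO, 4.82-fold (log2 fold change 2.27 ± 0.21 (SE), edgeR adjusted p = 0.0326). It is the member with an E-box in its promoter window, and the part of that E-box was not tested. In Bmal1-null aC3 EV cells Trim25 was near 0 CPM, lower than in YUMM2.1 EV cells. It stayed near 0 in aC3 with WT-Bmal1 returned, so this clone gives no check of the rise in B16-F10. Gbp7 rose from 0.671 and 0.969 to 8.23 and 11.02 CPM, 11.6-fold (log2 fold change 3.54 ± 0.38 (SE), edgeR adjusted p = 0.0365). Gbp3 had 0.192 and 0 CPM in Ctrl and 1.85 and 1.14 in Bmal1 KO and was not called. In neither called gene did the groups overlap, but both were picked by the test, and the share over all genes was not counted. Rsad2 was 19.7 and 23.1 CPM in Ctrl and 28.8 and 32.5 in Bmal1 KO, Ifitm3 was 32.7 and 34.8 and 44.9 and 63.5, and Bst2 was 4.17 and 5.47 and 7.78 and 9.11. None of these 3 passed the test. Of 32 members, 24 had a positive log2 fold change, with a median of 0.30 against -0.01 over all genes. Both calls were lost when either Ctrl library was left out (adjusted p up to 0.161 for Trim25 and 0.075 for Gbp7). The count rose to 5 members without Bmal1 KO 2 and to 14 without Bmal1 KO 1, when 2213 and 6612 genes were called in all. Ctrl and Bmal1 KO are 1 clone each, so the knockout and other properties of a clone cannot be told apart.

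The third question is what Bmal1 does when returned to Bmal1-null aC3 cells. With WT-Bmal1, 4 members rose and 1 fell, 5 of 29 members tested, against 11.2% of all 13790 genes. Ifit3 rose from 4.26 and 3.86 to 9.73 and 9.81 CPM (log2 fold change 1.25 ± 0.25 (SE), edgeR adjusted p = 0.00583). Ifit1 rose from 5.68 and 5.52 to 12.4 and 9.91 CPM (log2 fold change 0.98 ± 0.23 (SE), edgeR adjusted p = 0.0136). Ifit3 and Ifit1 both hold ISRE cores in the stretches printed above. In all, 12 of the 30 members with a window hold a core, and Ifitm3 and Xaf1 do not. The part of the cores was not tested. Ifi27 rose from 43.7 and 46.6 to 69.4 and 75.5 CPM (log2 fold change 0.67 ± 0.11 (SE), edgeR adjusted p = 0.00172). Ifitm3 rose from 220.5 and 207 to 303 and 328 CPM (log2 fold change 0.55 ± 0.09 (SE), edgeR adjusted p = 0.00105). Xaf1, which encodes a partner of the apoptosis inhibitor XIAP, fell from 54.4 and 47.4 to 35.2 and 34.7 CPM (log2 fold change -0.55 ± 0.14 (SE), edgeR adjusted p = 0.0229). The groups did not overlap in any of the 5. That is no further support, since the test had picked these genes and the share over all genes was not counted. Without aC3 EV 2 the adjusted p of Ifit3 was 0.0667. Ifit1 lost its call without aC3 EV 1, aC3 EV 2 or WT-Bmal1 1 (up to 0.146), and Xaf1 whichever of the 4 libraries was left out (up to 0.182). Over the 29 members tested, 24 had a positive log2 fold change and the median was 0.41, against 0.01 over all genes. The summed level of the 38 members was 624 and 609 CPM with EV and 789 and 818 with WT-Bmal1. Sox10, 1 of 2 pigment cell markers tested, rose too, from 449 and 438 to 547 and 549 CPM (log2 fold change 0.30), and the 7 markers summed to 462 and 449.8 and 562 and 564 CPM. Its part was not tested.

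The dHLH-Bmal1 form, without the DNA-binding domain, gave 4 of 29 members called in aC3, 3 higher and 1 lower, against 10.9% of all genes. This comparison shares its EV libraries with the one before. Ifitm3 rose to 305 and 321 CPM (log2 fold change 0.54 ± 0.09 (SE), edgeR adjusted p = 0.00164), beside 0.55 with WT-Bmal1. Ifi27 rose to 57.3 and 68.97 CPM (log2 fold change 0.47 ± 0.11 (SE), edgeR adjusted p = 0.0159). Gbp7 rose from 18.98 and 19.7 to 27.2 and 26.6 CPM (log2 fold change 0.47 ± 0.13 (SE), edgeR adjusted p = 0.0363). Xaf1 fell to 25.4 and 35.7 CPM (log2 fold change -0.75 ± 0.14 (SE), edgeR adjusted p = 0.00502). Of these calls, that of Gbp7 was lost whichever of the 4 libraries was left out (up to 0.184) and under DESeq2's Wald test (adjusted p = 0.102). Ifi27 lost its call without aC3 EV 1, aC3 EV 2 or dHLH-Bmal1 2 (up to 0.142), Ifitm3 without aC3 EV 2 (0.0544) and Xaf1 without aC3 EV 1 (0.0531). Sox10 rose here as well, to 604 and 544 CPM (log2 fold change 0.37), with the 7 pigment cell markers at 620.2 and 557 CPM, and its part was not tested.

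Set directly against each other, aC3 cells with wild-type and with dHLH-Bmal1 differed in 1 of 29 members, against 0.877% of all genes. That member was Ifit1, at 12.4 and 9.91 CPM with the wild-type and 4.76 and 4.46 with the dHLH form (log2 fold change 1.27 ± 0.24 (SE), edgeR adjusted p = 0.0208). The EV libraries lay at 5.68 and 5.52 CPM, between the other groups. The call was lost without either WT-Bmal1 library (adjusted p up to 0.289). Ifit3, at 9.73 and 9.81 CPM against 6.6 and 4.67, did not pass the test.

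In the YUMM2.1 libraries without a hairpin, with their own Bmal1, no ISG was called with the wild-type form. Between the same vectors with the control hairpin, described below, 8 of 29 members and 3308 of all 14848 genes were called. The 2 sets thus differ, and the cause was not tested. With WT-Bmal1 against EV, 0 of 27 members were called by edgeR, 0 had an unadjusted p under 0.05 and DESeq2's Wald test called 0. Over all 14323 genes, 0% were called. The members' log2 fold changes ran from -1.04 for Ifih1 to 0.56 for Irgm1 with a median of -0.003. In simulated data of this design, 28% of genes changed by a log2 fold change of 1 were recovered and 80% of those changed by 2, so changes of a size of 1 would mostly be missed. The 2 libraries of doubtful label, EV 2 and WT-Bmal1 1, belong to the groups compared here. With their labels exchanged, 0 members were called again, where 101 of all 14323 genes were.

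With dHLH-Bmal1 in YUMM2.1, 4 of 27 members fell against EV and 1 rose. That is 18.5% of the members where 13.2% of all genes were called, so the count lies near the background. Of the 27, 25 had a negative log2 fold change (median -0.39, all genes -0.01). Bst2 fell from 12.4 and 18.5 CPM with EV to 4.71 and 4.7 with dHLH-Bmal1 (log2 fold change -1.69 ± 0.26 (SE), edgeR adjusted p = 0.00989). Gbp7 fell from 27.5 and 29.6 to 10.4 and 9.29 CPM (log2 fold change -1.52 ± 0.20 (SE), edgeR adjusted p = 0.00617). Ifit3 fell from 8.01 and 4.87 to 1.32 and 2.59 CPM (log2 fold change -1.72 ± 0.45 (SE), edgeR adjusted p = 0.0494). All 3 hold an ISRE core in their window, as do 12 of the 30 members with a window. Stat2, Isg15 and Irgm1 hold one too and were not called, and Dtx3l, which fell, holds none. The part of the cores was not tested. Dtx3l, the ubiquitin ligase partner of Parp9, fell from 37.6 and 43.05 to 26.02 and 24.9 CPM (log2 fold change -0.64 ± 0.15 (SE), edgeR adjusted p = 0.0341). Dtx3l overlaps Parp9 on the other strand, and whether counting used strand is not given in the sources used here. Rtp4 rose from 1.08 and 1.3 to 3.96 and 4.12 CPM (log2 fold change 1.78 ± 0.46 (SE), edgeR adjusted p = 0.0465), and it overlaps another gene on the same strand.

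Bst2 and Gbp7 kept their calls whichever library was left out, whereas those of Dtx3l (adjusted p up to 0.121) and Rtp4 (up to 0.206) were lost whichever of the 4 was left out. Ifit3 lost its call without YUMM2.1 EV 1 or either dHLH-Bmal1 library (up to 0.22). With the 2 labels exchanged, 7 of 27 members were called, the same 5 among them, and 4114 of all 14323 genes in place of 1894. The log2 fold changes were then -1.56 for Bst2, -1.49 for Gbp7 and -2.03 for Ifit3. Against WT-Bmal1, dHLH-Bmal1 libraries were lower in Ifit3, Bst2 and Gbp7, 3 of 27 members or 11.1%, where 13% of all genes were called. With the replicate number as a block, 8 of 27 members were lower, these 3 among them, and 3727 of all 14323 genes were called in place of 1868. The log2 fold changes were -1.76 ± 0.45, -1.64 ± 0.26 and -1.33 ± 0.20 (SE), with edgeR adjusted p of 0.0466, 0.0108 and 0.00945. Bst2 stood at 15.6 and 14.1 CPM and Gbp7 at 28.4 and 21.3 CPM with WT-Bmal1. This comparison shares the dHLH-Bmal1 libraries with the one against EV. Ifit3 lost its call whichever of the 4 libraries was left out (up to 0.276), Bst2 without WT-Bmal1 1 or dHLH-Bmal1 1 (up to 0.088) and Gbp7 without WT-Bmal1 1 (0.0887). With the labels exchanged the count was 5, where 2706 of all 14323 genes were called. These 3 log2 fold changes were then -1.39, -1.77 and -1.35. Pigment cell markers moved with dHLH-Bmal1: Sox10, 1 of 2 tested, fell (log2 fold change -2.82 against EV), and the 7 markers summed to 81.1 and 93.03 CPM against 519 and 499 with EV and 556 and 447 with WT-Bmal1, Dct, Tyrp1 and Mlana at 0. Their part in the ISG result was not tested.

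**Figure D3:**
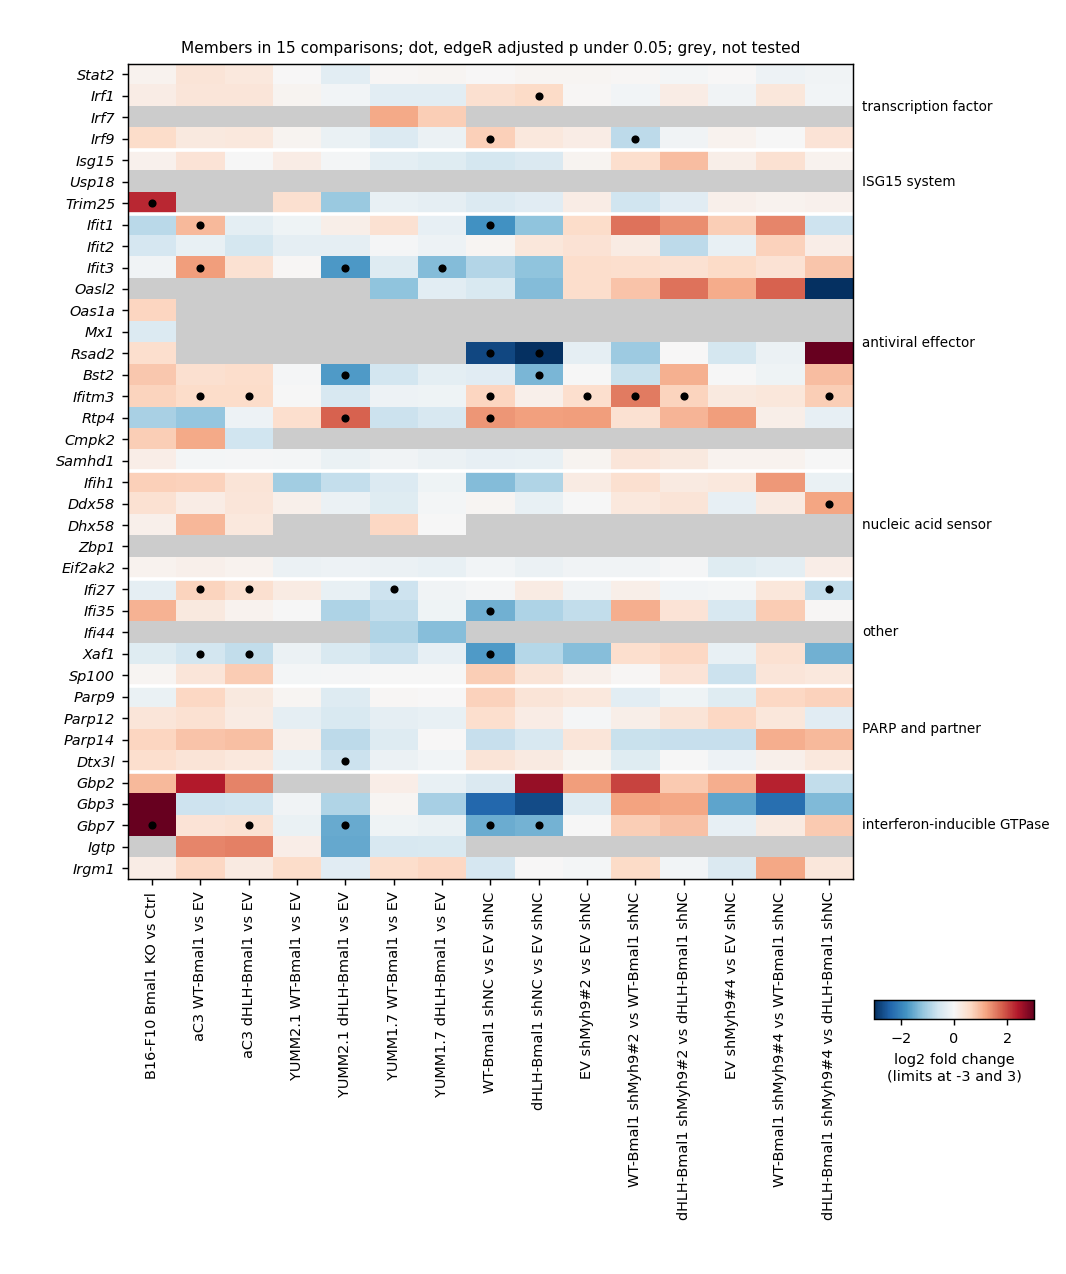
Log2 fold changes of the 38 members (rows, by role) in 15 comparisons (columns), with colour limits at -3 and 3, dots where the edgeR adjusted p was under 0.05 and grey where a gene was not tested. Negative values are blue and positive values red. In the YUMM2.1 dHLH-Bmal1 column 25 of 27 members are negative, in the aC3 WT-Bmal1 column 24 of 29 are positive, and Ifitm3 has 7 dots, all positive.

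In YUMM1.7, where 17 members had their highest group level, 1 member was called with each vector. With WT-Bmal1, 1 of 32 members was called, against 0.138% of all genes: Ifi27 fell from 108 and 88.5 to 65.4 and 63.1 CPM (log2 fold change -0.61 ± 0.09 (SE), edgeR adjusted p = 0.00957). Without YUMM1.7 EV 1 its adjusted p was 0.422. With dHLH-Bmal1, 1 of 32 was called, against 0.63%: Ifit3 fell from 9.93 and 9.25 to 2.57 and 5.15 CPM (log2 fold change -1.29 ± 0.27 (SE), edgeR adjusted p = 0.0405). This call was lost without YUMM1.7 EV 1, YUMM1.7 EV 2 or dHLH-Bmal1 1 (up to 0.347), and DESeq2's Wald test gave Ifit3 no adjusted p here. Isg15 was 31.1 and 32.1 CPM with EV, 26.8 and 24.5 with wild-type Bmal1 and 22.3 and 26.8 with the dHLH form, and did not pass in either comparison. Of 32 members, 24 had a negative log2 fold change with WT-Bmal1 (median -0.25) and 27 with dHLH-Bmal1 (median -0.19), and the medians over all genes were 0.0025 and -0.0030. The 2 comparisons share the EV libraries. The summed level was 919 and 886 CPM with EV, 760.3 and 767 with wild-type Bmal1 and 786 and 826 with the dHLH form.

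Whether dHLH-Bmal1 acted differently in Bmal1-null aC3 and in Bmal1-bearing YUMM2.1 was tested as an interaction in a fit of the 22 libraries without a hairpin. Whether the cell backgrounds were cultured or sequenced together is not given in the sources used here, so background and batch cannot be told apart. The difference was called for 8 of 35 members, against 11.4% of all genes, and 7 of the 8 had the higher effect in aC3. For Bst2 the log2 fold change was 0.52 ± 0.21 (SE) in aC3 and -1.69 ± 0.26 in YUMM2.1, and the fitted difference was 2.22 ± 0.34 (edgeR adjusted p = 0.000431). For Gbp7 it was 0.47 ± 0.13 in aC3 and -1.52 ± 0.20 in YUMM2.1 (difference 2.00 ± 0.30, edgeR adjusted p = 0.000336). For Ifit3 it was 0.47 ± 0.26 and -1.72 ± 0.45 (difference 2.22 ± 0.55, edgeR adjusted p = 0.0139). All 3 log2 fold changes were thus positive in one background and negative in the other, and in aC3 alone only Gbp7 was called.

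Ifitm3 had log2 fold changes of 0.54 in aC3 and -0.47 in YUMM2.1 (difference 1.04 ± 0.23, edgeR adjusted p = 0.00597). Dtx3l had 0.31 and -0.64 (difference 0.97 ± 0.20, edgeR adjusted p = 0.00365). Parp14, which encodes an ADP-ribosyltransferase, had 0.90 and -0.79 (difference 1.72 ± 0.49, edgeR adjusted p = 0.0312), and Ifi27 had 0.47 and -0.23 (difference 0.73 ± 0.19, edgeR adjusted p = 0.0167). Rtp4 went the other way, with -0.15 in aC3 and 1.78 in YUMM2.1 (difference -1.91 ± 0.53, edgeR adjusted p = 0.0271). Bst2, Gbp7, Ifitm3 and Dtx3l kept the call without any 1 of the 8 libraries. Ifit3 (up to 0.0823), Ifi27 (up to 0.0795), Parp14 (up to 0.139) and Rtp4 (up to 0.126) lost it without YUMM2.1 EV 1 and without 3 to 5 other libraries, among them aC3 EV 2. With the YUMM2.1 labels exchanged, 9 members were called, with Bst2 at 2.09 and Gbp7 at 1.98. Of all 16091 genes, 2672 were then called in place of 1831. Sox10, 1 of 7 pigment cell markers, differed in the same way (log2 difference 3.21), and its part was not tested. Against YUMM1.7 in place of aC3, 3 of 35 members were called, where 8.69% of all genes were. The effect in YUMM1.7 minus that in YUMM2.1 was 1.41 ± 0.34 for Bst2 (edgeR adjusted p = 0.014), 1.32 ± 0.31 for Gbp7 (0.0119) and -2.24 ± 0.49 for Rtp4 (0.00886). The log2 fold changes in YUMM1.7 were -0.30, -0.20 and -0.47. These calls were lost without YUMM2.1 EV 2, YUMM1.7 EV 2 or YUMM1.7 dHLH-Bmal1 1 for Bst2 (up to 0.0827), without YUMM1.7 EV 1 or dHLH-Bmal1 2 for Gbp7 (up to 0.0705) and without YUMM2.1 EV 1 for Rtp4 (0.0552). With the YUMM2.1 labels exchanged the same 3 members were called, 2 with the higher effect in YUMM1.7 and 1 with the lower. Of all 16091 genes, 2173 were then called in place of 1398. Both interactions share the YUMM2.1 libraries.

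**Figure D4:**
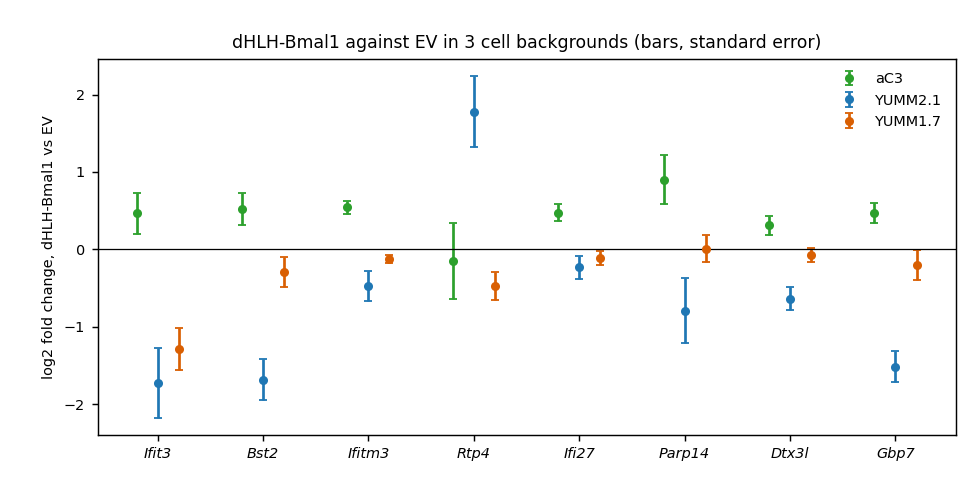
Log2 fold change of dHLH-Bmal1 against EV (points) with its standard error (bars) in aC3, YUMM2.1 and YUMM1.7 for the 8 members whose effect differed between aC3 and YUMM2.1. Bst2, Gbp7 and Ifit3 lie above 0 in aC3 and between -1.52 and -1.72 in YUMM2.1.

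The YUMM2.1 vectors were sequenced again in cells with the control hairpin, a separate set of libraries. In these shNC cells, WT-Bmal1 against EV gave 3 members higher and 5 lower, 8 of 29, against 22.3% of all 14848 genes. Gbp7 fell from 10.9 and 12.1 to 4.36 and 3.94 CPM (log2 fold change -1.48 ± 0.30 (SE), edgeR adjusted p = 0.00168). Ifit1 fell from 5.75 and 6.39 to 1.64 and 1.79 CPM (log2 fold change -1.82 ± 0.49 (SE), edgeR adjusted p = 0.0116). Rsad2 fell from 2.57 and 3.47 to 0.545 and 0.358 CPM (log2 fold change -2.72 ± 0.83 (SE), edgeR adjusted p = 0.0265). Xaf1 fell from 37.7 and 39.2 to 16.1 and 7.88 CPM and Ifi35 from 7.71 and 5.15 to 2.86 and 1.91 (log2 fold changes -1.70 ± 0.50 and -1.44 ± 0.44). Ifitm3 rose from 162 and 167 to 257 and 262 CPM (log2 fold change 0.65 ± 0.11 (SE), edgeR adjusted p = 0.000385). Irf9 rose from 11.6 and 13.2 to 20.99 and 19.8 CPM and Rtp4 from 0.856 and 2.02 to 3.95 and 3.34 (log2 fold changes 0.71 ± 0.22 and 1.31 ± 0.46). The called members did not move one way: the antiviral effectors Ifit1 and Rsad2 fell where Ifitm3 rose. Gbp7 and Ifitm3 kept their calls without any 1 library. Irf9 (up to 0.167) and Rsad2 (0.198) lost theirs whichever of the 4 was left out. Ifit1 kept its call only without EV shNC 1 (otherwise up to 0.075), Xaf1 only without WT-Bmal1 shNC 1 (otherwise up to 0.214) and Rtp4 only without EV shNC 2 (otherwise up to 0.33) and not under DESeq2's Wald test (adjusted p = 0.0619). Ifi35 lost its call without EV shNC 1 or WT-Bmal1 shNC 2 (up to 0.194).

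With dHLH-Bmal1 in shNC cells, 4 of 29 members were called against EV, 1 higher and 3 lower, where 26.4% of all genes were. Rsad2 was at 0 counts in both dHLH-Bmal1 shNC libraries, at least 6.21-fold lower than EV against a floor of 3 counts per library (edgeR adjusted p = 0.000442). Gbp7 fell to 3.12 and 5.84 CPM (log2 fold change -1.42 ± 0.30 (SE), edgeR adjusted p = 0.00161). Bst2 fell from 5.87 and 5.15 to 1.66 and 2.76 CPM (log2 fold change -1.37 ± 0.40 (SE), edgeR adjusted p = 0.0174). Irf1 rose from 21.4 and 16.2 to 29.3 and 26.1 CPM (log2 fold change 0.57 ± 0.20 (SE), edgeR adjusted p = 0.0404). Bst2 lost its call without EV shNC 1 or dHLH-Bmal1 shNC 1 (up to 0.203), Gbp7 without dHLH-Bmal1 shNC 1 (0.0596) and Irf1 without EV shNC 2 or either dHLH-Bmal1 shNC library (up to 0.337). Ifitm3 was 186 and 182 CPM and was the 1 member of 29 that differed from WT-Bmal1 shNC (log2 fold change -0.49 ± 0.11 (SE), edgeR adjusted p = 0.0277), against 1.91% of all genes, and that call was lost whichever of the 4 libraries was left out (up to 0.233). The comparisons with EV share the EV shNC libraries. Sox10 moved with the vectors here too, at 327 and 334 CPM with EV, 98.97 and 100.3 with wild-type Bmal1 and 22.7 and 26.1 with the dHLH form, 1 called of 3 pigment cell markers tested, the 7 summing to 343 and 349, 122 and 119 and 41.2 and 44.3 CPM with Tyrp1 and Mlana at 0. The endothelial marker Cdh5 was higher than in EV with both forms, at 3.55 and 2.13, 12.95 and 11.8 and 8.05 and 7.95 CPM in the same order. The part of these markers was not tested.

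Lowering Myh9, the heavy chain of non-muscle myosin IIA, went with few called ISGs apart from Ifitm3. With shMyh9#2, the called members were 1 of 29 in EV cells (6.65% of all genes), 2 in WT-Bmal1 cells (4.76%) and 1 in dHLH-Bmal1 cells (0.559%). With shMyh9#4 they were 0 in EV cells (1.71%), 0 in WT-Bmal1 cells (0.236%) and 3 in dHLH-Bmal1 cells (15.1%). For the counts of 0 by edgeR, 2 and 6 members had an unadjusted p under 0.05 in EV and WT-Bmal1 cells, and DESeq2's Wald test called 0 of the 24 and 12 members to which it gave an adjusted p. Ifitm3 was called in all 3 backgrounds with shMyh9#2. In EV cells it rose from 162 and 167 to 235 and 234 CPM (log2 fold change 0.51 ± 0.11 (SE), edgeR adjusted p = 0.00985). In WT-Bmal1 cells it rose from 257 and 262 to 757 and 772 CPM, 2.94-fold (log2 fold change 1.55 ± 0.11 (SE), edgeR adjusted p = 1.22e-07). In dHLH-Bmal1 cells it rose from 186 and 182 to 323 and 271 CPM (log2 fold change 0.68 ± 0.11 (SE), edgeR adjusted p = 0.00783).

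The rise in WT-Bmal1 cells was larger than that in EV cells by 1.05 ± 0.16 (SE) on the log2 scale (edgeR adjusted p = 0.000555), an interaction tested after the levels were seen. Ifitm3 was the 1 member of 29 called in it, against 5.18% of all genes. Myh9 itself was also called in it, its fall with shMyh9#2 being larger in WT-Bmal1 than in EV cells. With shNC, Myh9 was called higher in WT-Bmal1 than in EV cells. The part of these Myh9 differences in the Ifitm3 result was not tested. For dHLH-Bmal1 against EV cells the same interaction called 0 of 29 members by edgeR and 0 of 24 by DESeq2's Wald test, with 4 at an unadjusted p under 0.05, against 3.29% of all genes. In the WT-Bmal1 shMyh9#2 libraries Ifitm3 made up 68.3 and 68.5% of the summed ISG level, and without it the sum of the other 37 members was 351 and 354 CPM, beside a range of 322 to 394 CPM over all 18 hairpin libraries. The call in WT-Bmal1 cells and its interaction held without any 1 library, whereas that in EV cells was lost whichever of the 4 was left out (up to 0.112). In dHLH-Bmal1 cells it was lost without either shNC library or shMyh9#2 1 (up to 0.149). With shMyh9#4, Ifitm3 was 180.4 and 226 CPM in EV, 342 and 310.0 in WT-Bmal1 and 286 and 324 in dHLH-Bmal1 cells, called in the last alone (log2 fold change 0.74 ± 0.11 (SE), edgeR adjusted p = 0.000986). Sox10 fell with shMyh9#2 in all 3 backgrounds (log2 fold changes -0.83, -1.48 and -0.90), Cdh5 rose in EV cells (log2 fold change 1.83), and with shMyh9#4 in dHLH-Bmal1 cells Sox10 rose (0.92). Their part was not tested.

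**Figure D5:**
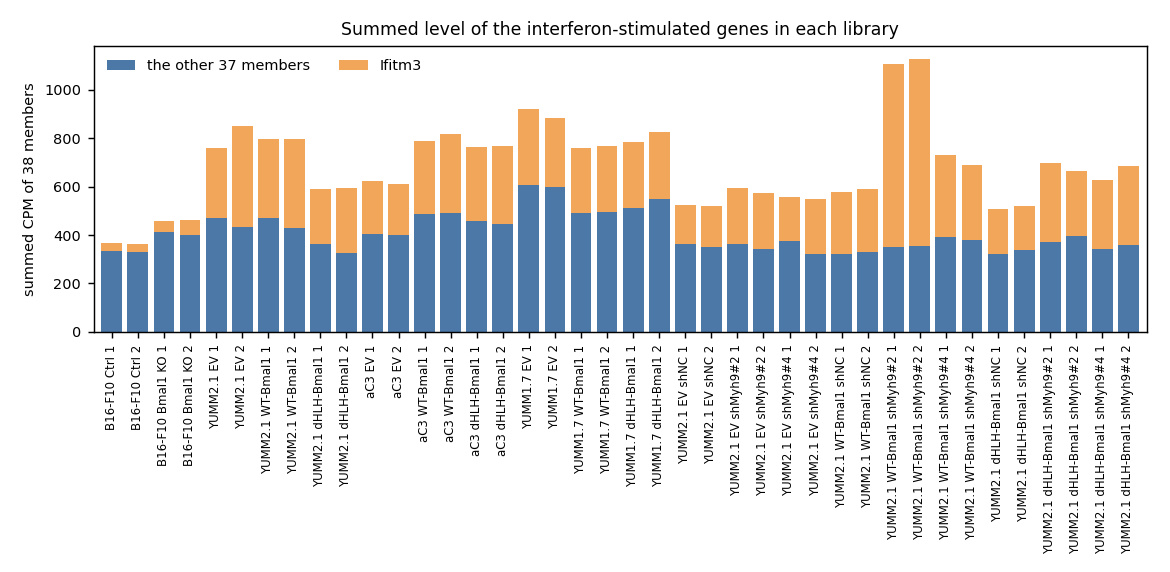
Summed level in CPM of the 38 members in each of the 40 libraries (bars from 0), split into Ifitm3 and the other 37 members. The 2 WT-Bmal1 shMyh9#2 libraries have the highest sums, 1108 and 1126 CPM, and the 2 B16-F10 Ctrl libraries the lowest, 367 and 365 CPM.

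The other calls with a Myh9 hairpin were scattered. Irf9 fell from 20.99 and 19.8 to 12.3 and 11.4 CPM in WT-Bmal1 cells with shMyh9#2 (log2 fold change -0.78 ± 0.21 (SE), edgeR adjusted p = 0.0432), a call lost whichever of the 4 libraries was left out (up to 0.25). With shMyh9#4 in dHLH-Bmal1 cells, Ddx58 rose from 18.7 and 19.1 to 35.7 and 48.5 CPM (log2 fold change 1.17 ± 0.21 (SE), edgeR adjusted p = 0.00181). Ifi27 fell there from 48.3 and 43.2 to 32.8 and 23.6 CPM (log2 fold change -0.71 ± 0.17 (SE), edgeR adjusted p = 0.0112). Ddx58 lost its call without shMyh9#4 2 (adjusted p = 0.0663) and Ifi27 without shMyh9#4 2 or shNC 1 (up to 0.218). These shMyh9#4 libraries held 3643332 and 6001340 counts, the former being the shallowest of all 40, and Myh9 stood at 681 and 645 CPM in them.

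The rest of the pathway was read from 73 listed genes that are no members. Of 10 interferon genes, 9 had 0 counts, Ifnb1 and 4 Ifna genes included, and Ifng had 1 count over all 40 libraries. The receptors were present: Ifnar1 was 6.37 to 17.3 CPM, Ifnar2 23.5 to 48.1 CPM and Ifngr1 7.9 to 46.7 CPM over the 40 libraries. In aC3 with WT-Bmal1, Ifnar2 rose from 26.6 and 27.5 to 40.2 and 37.6 CPM (log2 fold change 0.51 ± 0.12 (SE), edgeR adjusted p = 0.0125), and Jak2, a kinase of the interferon gamma receptor, from 19.9 and 21.8 to 38.1 and 37.8 CPM (log2 fold change 0.85 ± 0.12 (SE), edgeR adjusted p = 0.000513). Of 42 pathway genes tested in that comparison, 8 rose and 0 fell, 19% called against 11.2% of all genes. With dHLH-Bmal1 in aC3, 5 rose and 0 fell (11.9% against 10.9%), Jak2 again among them (0.46). In YUMM2.1, dHLH-Bmal1 against EV gave 3 higher and 5 lower of 45 (17.8% against 13.2%), among them the ISGs Isg20 (2.68) and Ifi204 (1.77) higher and the Isg15-activating enzyme gene Uba7 (-1.25) lower. Ifngr1 rose in WT-Bmal1 against EV cells with shNC (0.53) and in dHLH-Bmal1 cells with shMyh9#4 (0.55), where Socs1 and Socs3, which inhibit the receptors' kinases, fell. Socs1 went from 4.58 and 2.27 to 0.283 and 0 CPM and Socs3 from 15.2 and 15.3 to 3.4 and 1.76 CPM. In shNC cells the pathway genes called were 9 higher and 3 lower of 46 with WT-Bmal1 (26.1% against 22.3% of all genes) and 12 higher and 5 lower with dHLH-Bmal1 (37% against 26.4%). With dHLH-Bmal1 in aC3 and with WT-Bmal1 in shNC cells the shares lie near those of all genes.

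Over the 18 comparisons within an experiment, 15 members were called at least once and 23 never, with Ifitm3 called in 8 and Gbp7 in 6. The 15 are 41.7% of the 36 members tested at least once, and 44.4% of all 16623 genes so tested were called at least once. Of the 23, Usp18 and Zbp1, which encodes a sensor of Z-form nucleic acids, were too low to be tested in any of the 18. Another 12 were tested in all. Stat2 had log2 fold changes of -0.32 to 0.39 over the 18, Samhd1 of -0.24 to 0.35 and Eif2ak2 of -0.37 to 0.20. Isg15 ran from -0.53 to 0.92, Ifit2, another gene of the Ifit family, from -0.78 to 0.68 and Ifih1, the gene of the RNA sensor MDA5, from -1.30 to 1.29. The ADP-ribosyltransferase genes Parp9, Parp12 and Parp14 ran from -0.44 to 0.70, -0.45 to 0.63 and -0.94 to 1.09, the nuclear body gene Sp100 from -0.64 to 0.76 and the GTPase gene Irgm1 from -0.89 to 1.17. Gbp3, also tested in all 18, was at 0 to 2.92 CPM over the libraries, too few counts for a stable fold. The other 9, Irf7, Mx1, Oas1a, Oasl2, Cmpk2, Dhx58, Ifi44, Gbp2 and Igtp, passed the filter on low counts in 1 to 15 of the 18. Their levels reached at most 8.87 CPM, that of Cmpk2 in B16-F10 Bmal1 KO.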

How the data were processed

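RNA from 40 libraries of melanoma cell lines was sequenced by QuantSeq, a 3′-end method. Per the labels and the study's methods, the authors aligned reads to mm10 with bowtie2 and estimated counts per gene with RSEM. The submitters' processing notes name RSEM 1.2.3 and DESeq2. The deposited table holds these estimated counts as whole numbers for 51789 genes, 99.63% with a symbol, and no rounding was needed here. Strand use in counting is not given in the sources used here. Library totals ran from 3643332 to 22970049 counts.

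Genes were kept by edgeR's filterByExpr and tested with its quasi-likelihood test (R 4.3.3, edgeR 4.0.16, limma 3.58.1) on TMM-scaled counts. There was 1 fit for each of the 5 experiments, and 1 fit of the 22 libraries without a hairpin for comparisons between lines. Calls used a Benjamini-Hochberg adjusted p under 0.05 over all genes tested. Groups came from the labels, and the 5 experiments are a division of the libraries made here by cell line and hairpin. The members, the pathway and marker lists and the comparisons were chosen with earlier results of these data known. Called members were named, at most 8 in each direction by size of change, and Isg15, Ifit1, Ifit3, Irf7, Stat2, Irf9, Bst2, Ifitm3, Gbp2 and Irf1 were given by level whatever their result. Floors of 3 counts cover counting error only.

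Alternatives were DESeq2 size factors, DESeq2's Wald test (1.42.0), no filter, a mean of at least 10 counts, 1 fit of all 40 libraries, a replicate block, each library left out, and 2 YUMM2.1 labels exchanged. On data simulated with 200 changed genes per design, 12 to 73% of genes changed by a log2 value of 1 and 75 to 89% of those changed by 2 were recovered, and 5.19 to 13.9% of calls were unchanged genes. Promoter windows were RefSeq's for GRCm38.p6. Mb21d1, on the sensing list, had no match in the table. Some alleles and genes are not reported here.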

Additional observations from a re-analysis of the deposited data

Results flagged for a closer look

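Effects that differed between cell backgrounds by an interaction test were picked out, all with edgeR adjusted p over all genes. For dHLH-Bmal1 against EV, the log2 fold change in aC3 minus that in YUMM2.1 was 2.22 for Ifit3 (adjusted p = 0.014), 2.22 for Bst2 (0.00043) and 2.00 for Gbp7 (0.00034). It was 1.72 for Parp14 (0.031), 1.04 for Ifitm3 (0.0060), 0.97 for Dtx3l (0.0036), 0.73 for Ifi27 (0.017) and -1.91 for Rtp4 (0.027). The same effect in YUMM1.7 minus that in YUMM2.1 was 1.41 for Bst2 (0.014), 1.32 for Gbp7 (0.012) and -2.24 for Rtp4 (0.0089). The effect of shMyh9#2 on Ifitm3 in WT-Bmal1 minus that in EV cells was 1.05 (0.00056), a difference tested after the values of Ifitm3 were seen. The fall of Myh9 with this hairpin was also larger in WT-Bmal1 than in EV cells, and its part was not tested. Groups of 2 libraries are too small for a test of single outlying libraries.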

How the results depend on the processing

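Counts of called members stayed within 1.5 times under DESeq2 size factors and under a mean of at least 10 counts in all 25 comparisons. The cause of the shifts that follow was not tested. The number of all genes called under the same setting stands in brackets after each count. In 1 fit of all 40 libraries 16619 genes were tested. The count was 7 for B16-F10 Bmal1 KO (1952). In aC3 it was 2 for WT-Bmal1 (391) and 0 for dHLH-Bmal1 (160) against EV, and 0 between them (18). It was 10 for YUMM2.1 dHLH-Bmal1 against WT-Bmal1 (3398) and 0 for WT-Bmal1 (0) and dHLH-Bmal1 (4) in YUMM1.7. With shNC it was 8 for dHLH-Bmal1 against EV (4004) and 0 against WT-Bmal1 (246). For the shMyh9#2 difference between WT-Bmal1 and EV it was 2 (576). With no filter the count was 5 for YUMM2.1 dHLH-Bmal1 against WT-Bmal1 (2970), and 4 for WT-Bmal1 (246) and 2 for dHLH-Bmal1 (331) in YUMM1.7. It was 2 for shMyh9#2 in EV cells (1542). With shNC it was 7 for dHLH-Bmal1 against EV (4065) and 2 against WT-Bmal1 (559). For the shMyh9#2 difference from EV it was 1 with dHLH-Bmal1 (950) and 2 with WT-Bmal1 (1313). DESeq2's Wald test gave 0 for YUMM1.7 dHLH-Bmal1 (79), where only 3 of 32 members, without Ifit3, had an adjusted p. Exchanging the 2 YUMM2.1 labels gave 5 for dHLH-Bmal1 against WT-Bmal1 (2706) and 5 for aC3 EV against YUMM2.1 EV (533). With the replicate block the count was 8 for YUMM2.1 dHLH-Bmal1 against WT-Bmal1 (3727), 0 for YUMM1.7 dHLH-Bmal1 (66) and 1 for shMyh9#2 in WT-Bmal1 cells (634). It stayed within 1.5 times elsewhere. Nothing in the labels says what a shared replicate number means. Deviations of same-numbered libraries correlated at 0.233 to 0.510 over 14144 genes in YUMM2.1, 0.142 in B16-F10, 0.047 to 0.079 in aC3, -0.055 to 0.074 in YUMM1.7 and -0.216 to 0.305 in the hairpin set.

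Leaving out 1 library at a time, with the lone library left in its group assumed to vary like the other groups, the count ran from 0 to 14 in B16-F10, 2 to 4 and 1 to 4 for WT-Bmal1 and dHLH-Bmal1 in aC3, 0 to 1 between them, 2 to 3 for dHLH-Bmal1 against EV and 0 to 2 against WT-Bmal1 in YUMM2.1, and 0 to 2 and 0 to 1 for the vectors in YUMM1.7. For shMyh9#2 it was 0 to 0 in EV, 1 to 2 in WT-Bmal1 and 0 to 1 in dHLH-Bmal1 cells, and for shMyh9#4 in dHLH-Bmal1 cells 1 to 4. With shNC it was 2 to 5 for WT-Bmal1 and 1 to 4 for dHLH-Bmal1 against EV, and 0 to 0 between them. Between lines it was 11 to 15 for YUMM1.7, 16 to 17 for B16-F10 and 1 to 3 for aC3, and for the differences of effects 4 to 8, 2 to 4, 0 to 1 and 1 to 1 in the order above. The log2 fold change of Rtp4 with dHLH-Bmal1 in aC3, which was not called, was 0.19 without dHLH-Bmal1 1 and -0.60 without dHLH-Bmal1 2. In simulated data, changes of a log2 value of 1 were recovered least in B16-F10 (12%) and YUMM2.1 (28%).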

Other observations

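The 2 libraries of a group often disagreed in Xaf1. They differed by more than 2-fold in 5 of 20 groups and by up to 4.08-fold, at 53.3 and 13.1 CPM in YUMM2.1 EV shMyh9#4. It was 43.7 and 15.9 CPM in B16-F10 Bmal1 KO, 43.6 and 22.1 in YUMM2.1 EV and 36.7 and 10.3 in YUMM2.1 dHLH-Bmal1.

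ISGs outside the list of members also differed between YUMM1.7 EV and YUMM2.1 EV, where 10 of 27 tested were higher and 4 lower, against 32.7% of all genes called. The higher ones included Trim30a, at 20.8 and 18.03 against 0.0835 and 0.757 CPM (log2 fold change 5.60 ± 0.44 (SE), edgeR adjusted p = 1.41e-07), and Lgals3bp, at 26.7 and 22.99 against 2.75 and 2.38 CPM (log2 fold change 3.24 ± 0.40 (SE), edgeR adjusted p = 8.66e-06). Both were picked after their values were seen.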
